A study of Bos taurus with 24 samples.

Results

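Replication-dependent histone genes were followed through follicle growth in bovine granulosa cells, the somatic cells that surround the oocyte. They were taken as every gene of the count table whose symbol is that of a clustered linker histone (H1-1 to H1-6) or of a clustered core histone (symbols beginning H2AC, H2BC, H3C or H4C). The rule found 27 genes among the 27607 of the table: 2 linker histone genes, 9 H2A, 10 H2B, 4 H3 and 2 H4 genes. All 27 passed the filter on low counts and were tested. A further 39 symbols of the same families, of 66 in the RefSeq annotation, matched no single gene of the table and are not among the 27. Some of these were named through their exons and tested only in a check given at the end.

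The libraries fall into 5 groups. Secondary follicles gave 4 libraries of granulosa cells (secondary_GC). Early antral follicles gave 5 libraries of the cumulus (early_CC) and 5 of the mural layer (early_MGC), and late antral follicles likewise gave 5 of each (late_CC, late_MGC). Cumulus cells sit next to the oocyte and mural cells line the follicle wall. No treatment, genotype, breed or age is given in the labels. The study asks how granulosa cells differ between these stages in their capacity to regrow transzonal projections, the thin processes that reach the oocyte.

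As background, replication-dependent histones package newly made DNA, and their genes lie in clusters, mostly lack introns and are transcribed mainly in S phase. Their messenger RNAs typically end in a stem-loop bound by SLBP and not in a poly(A) tail, and they are degraded when DNA synthesis stops. In human cells, polyadenylated transcripts of several of these genes, among them H1-2, H2AC6 and H2BC5, are known from cells that have left the cycle. The cDNA kit named in the labels primes on poly(A), so the levels below are those of histone transcripts that such priming captured and not of the whole histone messenger pool. How much of that pool was captured was not tested.

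On the ARS-UCD1.2 genome 22 members lay on chromosome 23, 3 on chromosome 3 and 2 on chromosome 7, and 21 had a single exon. The members with most reads were H1-2 (chr23:31876303-31878150, plus strand), H1-4 (chr23:31796098-31796757, minus strand) and H4C4 (chr23:31774497-31775288, plus strand). H2AC13 lay at chr23:31001731-31002183 on the minus strand, H2BC12 at chr23:31354601-31355275 on the plus strand and H2BC15 at chr23:30972348-30976581 on the minus strand. Outside the large cluster, H2BC18 lay at chr3:20779441-20779821 on the plus strand and H2AC25 at chr7:2573757-2575265 on the plus strand. Histone paralogues are nearly identical in their coding parts. The header of the table shows no option to count reads that align to several places, so reads shared by paralogues are missing from these counts, and counting ignored strand. The share lost per gene was not tested.

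Libraries held 8379801 to 31762400 counts. In late_MGC replicate 3 the granulosa marker list summed to 281 CPM (reads of a gene as a share of all counted reads in that library, on one common scale), against 9379 to 12986 CPM in the other late_MGC libraries, and FSHR, the receptor that defines these cells, stood at 10.6 CPM. Its theca and stroma list (9 of 10 genes in the table) summed to 2109 CPM, against 202 to 365 CPM in the others, led by LUM at 1621 CPM and DCN at 276 CPM. It also had the lowest mean correlation with its own group, 0.87, followed by late_CC replicate 3 at 0.9145 and early_MGC replicate 4 at 0.9205. Each comparison is given with all libraries, followed by what changed without these 3 or without late_MGC replicate 3 alone. The part of these markers in the histone values was not tested. In the group means FSHR stood at 260 to 359 CPM, while FOXL2, another granulosa marker, was low at 0.51 to 2.27 CPM. Among markers of other cells, the group means of BMP15 and GDF9 (oocyte, at 0 and at most 0.397 CPM), CYP17A1 (steroid-making theca, at most 0.0321 CPM), PECAM1 (endothelium, at most 0.0578 CPM) and HBB (red cells, at 0) were at or near 0. Other genes of the same lists were present. INSL3 of the theca list had group means of 94.2 CPM in early_CC to 402 CPM in late_CC, and LUM of 17.3 CPM in secondary_GC to 334 CPM in late_MGC. OOEP of the oocyte list reached 21.7 CPM in secondary_GC and FLT1 of the endothelial list 30.8 CPM in early_MGC. HBA of the red cell list stood at 43.1 CPM in late_CC. The group means of the whole lists were 3.39 to 26.6 CPM for oocyte (10 of 12 genes in the table), 200.4 to 655 CPM for theca and stroma, 7.04 to 37.7 CPM for endothelium (8 of 8) and 0.817 to 44.7 CPM for red cells (5 of 6). For leukocytes (7 of 7) they ran from 1.07 CPM in late_CC to 4.86 CPM in early_MGC, where replicates 4 and 5 stood at 9.79 and 8.25 CPM. In bulk samples such as these, fewer cells of a type and less RNA per cell cannot be told apart.

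The 27 histone genes together made up a small part of the libraries, and their summed level set apart early mural cells from early cumulus and secondary granulosa cells. The sum had a median of 372 CPM in secondary_GC (range 269 to 442), 371 CPM in early_CC (339 to 450), 1037 CPM in early_MGC (894 to 1344), 707 CPM in late_CC (593 to 904) and 1098 CPM in late_MGC. The late_MGC libraries ran from 993 to 1396 CPM except replicate 3, at 231 CPM. Early_MGC did not overlap with early_CC or secondary_GC, and late_CC lay above both of those groups. H1-2, H1-4 and H2AC13 carried most of this difference: their sum was 473 to 945 CPM in early_MGC, against 122 to 197 CPM in early_CC and 111 to 227 CPM in secondary_GC. The other 24 genes summed to 283 to 421 CPM in early_MGC, 217 to 253 CPM in early_CC and 153 to 259 CPM in secondary_GC.

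**Figure D1:**
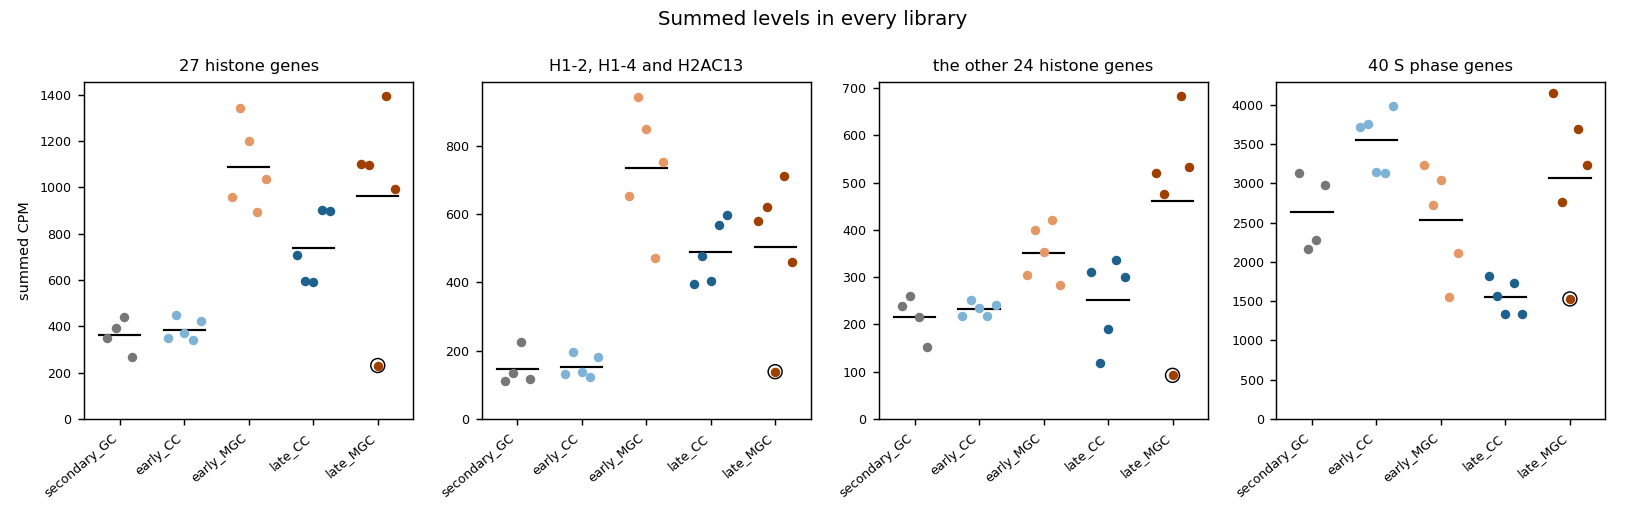
Summed CPM in every library for all 27 histone genes, for H1-2, H1-4 and H2AC13, for the other 24, and for 40 genes of S phase and DNA replication; points are libraries, lines are group means, and the ring marks late_MGC replicate 3. The histone sum was highest in mural cells (medians of 1037 and 1098 CPM), while the S phase sum was lowest in late_CC (median 1568 CPM).

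Per kilobase of exon, members differed widely in level. Over the 24 libraries H1-2 averaged 312.3 CPM per kb, H1-4 170, H2AC13 165, H4C4 86.4, H2BC12 59.1 and H2BC18 46.4 CPM per kb. At the low end H2BC3 averaged 2.80 and H3C13 1.49 CPM per kb. Several members form head-to-head pairs of an H2A and an H2B gene, which run apart from a short shared stretch of DNA, 4 of them with a gap of 262 to 322 bases here. Pairs differed in how alike their members were. H2AC8 and H2BC8 were close in early_MGC, at 22.7 and 21.7 CPM per kb, whereas H2AC13 stood at 292 CPM per kb beside 4.74 for H2BC13 in the same group. In secondary_GC the H2AC13 pair stood at 13.6 and 2.07 CPM per kb. Within each library the ratio of H2AC13 to H2BC13 per kb was 69.2 to 87.6 in 4 early_MGC libraries and 13.3 in early_MGC replicate 4, against 6.16 to 11.97 in early_CC and 3.19 to 32.9 in secondary_GC. It was 10.2 to 72.7 in late_CC and 21.3 to 289.7 in late_MGC, so a high ratio was not particular to early_MGC. H2BC13 had 3 to 15 counts in each secondary_GC library, 8 in late_CC replicate 2 and 2 in late_MGC replicate 3, which makes these ratios uncertain.

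**Figure D2:**
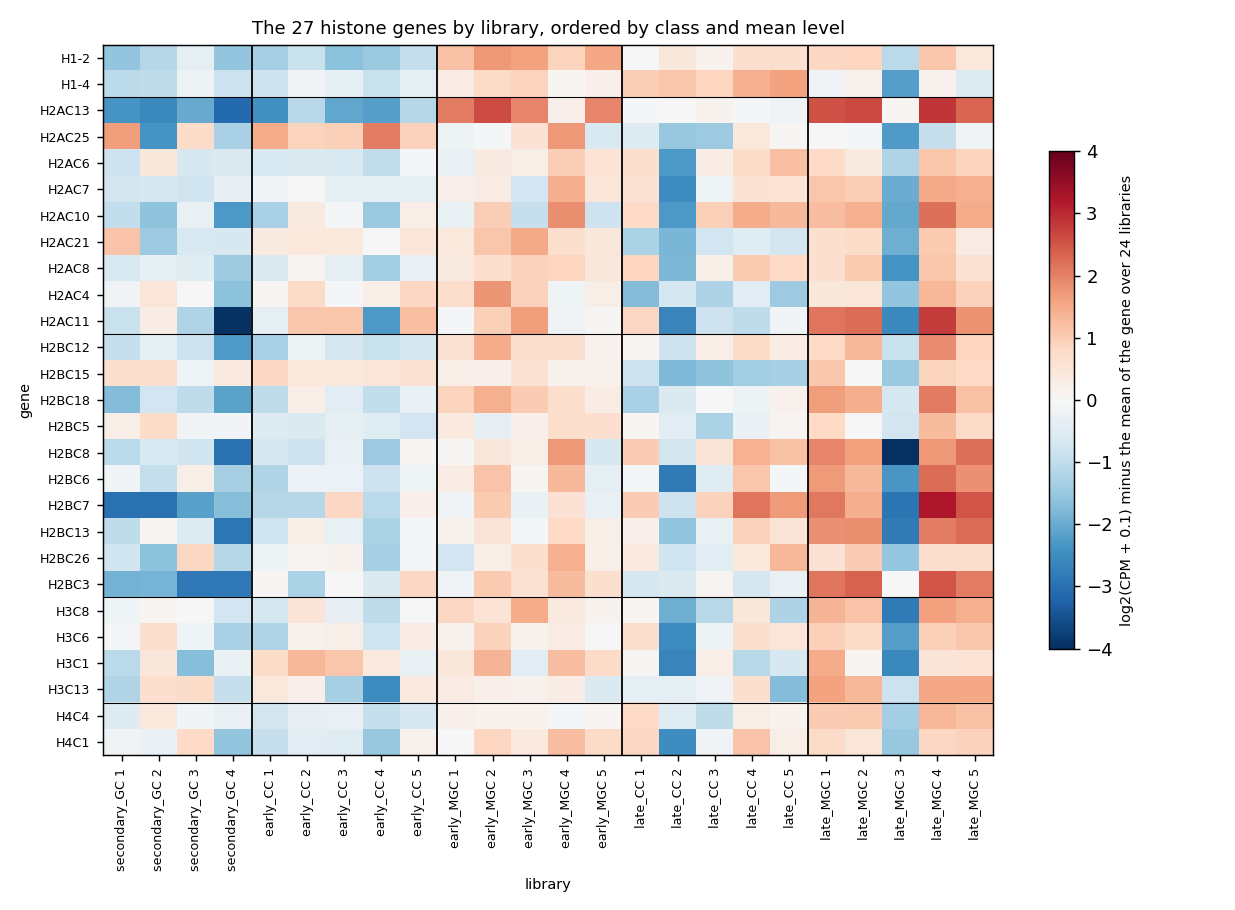
Each cell is log2(CPM + 0.1) of a gene in a library minus that gene's mean over 24 libraries, red above and blue below, with genes ordered by class and mean level. H2AC13, H1-2 and H2BC18 are red across mural libraries other than late_MGC replicate 3. Late_MGC replicate 3 is blue in nearly every row, and late_CC replicate 2 is blue in many core histone rows.

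The first comparison sets mural cells of early antral follicles against granulosa cells of secondary follicles. Both linker histone genes, the core histone gene H2AC13 and 4 H2B genes were higher in early_MGC. H2AC13, an H2A gene of the chromosome 23 cluster, had 122, 182, 116, 34.0 and 116 CPM in early_MGC libraries, against 5.67, 4.90, 7.37 and 3.35 CPM in secondary_GC libraries. Every early_MGC library lay above every secondary_GC library, and early_MGC replicate 4 was the lowest of its group. The log2 fold change was 4.53 ± 0.50 (SE; adjusted p = 1.6e-05 by edgeR's quasi-likelihood test with Benjamini-Hochberg adjustment, as for all adjusted p-values of members unless another tool is named).

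H1-2, a linker histone that binds DNA between nucleosomes, had 413, 604, 560, 341 and 530 CPM in early_MGC, against 61.1, 82.3, 138 and 61.6 CPM in secondary_GC. The groups did not overlap, and the log2 fold change was 2.63 ± 0.34 (adjusted p = 8.7e-05). H1-4, another linker histone, had 119, 159, 173, 98.2 and 108 CPM in early_MGC and 44.6, 46.7, 82.0 and 51.1 CPM in secondary_GC. Its change was smaller, at 1.36 ± 0.33 (adjusted p = 0.013), and its adjusted p was 0.052 without secondary_GC replicate 4.

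Among the H2B genes, which encode the partner of H2A in the nucleosome, H2BC12 had 49.2, 90.5, 51.6, 50.5 and 35.9 CPM in early_MGC, against 16.7, 24.5, 17.7 and 6.53 CPM in secondary_GC. H2BC18 had 24.8, 36.1, 27.1, 21.6 and 16.3 CPM in early_MGC, against 3.90, 7.80, 6.52 and 2.95 CPM in secondary_GC. Neither gene overlapped between the groups, with log2 fold changes of 1.92 ± 0.44 (adjusted p = 0.0093) and 2.41 ± 0.45 (adjusted p = 0.0023). The remaining 2 were low. H2BC7 averaged 2.80 CPM in early_MGC and 0.36 CPM in secondary_GC (3.0 ± 0.84, adjusted p = 0.028), a call that was lost in 5 of the fits that left out 1 library (adjusted p 0.054 to 0.084). H2BC3 had 82 counts over the early_MGC libraries and 3 counts over the secondary_GC libraries (adjusted p = 0.0017). Its ratio of CPM was 26.5 (95% interval for counting error 8.74 to 131).

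In all, 7 of 27 histone genes rose, where 5.01% of the 14298 genes tested rose, and 0 fell, where 4.08% of all genes fell. At an unadjusted p under 0.05, 13 rose and 0 fell, where 12.4% of all genes rose and 12.3% fell. DESeq2 called 9 higher and 0 lower, where it called 6.39% of all genes higher and 6.46% lower. All 27 log2 fold changes were positive, with a median of 1.32, against -0.004 over all genes; with other size factors (RLE) 26 of 27 were positive. Without the 3 libraries that stand apart 10 rose, where 6.93% of all genes rose. These were the same 7 genes with H2AC4, H2AC8 and H2BC8, and H2AC13 had a log2 fold change of 4.75 ± 0.29 and H1-2 of 2.69 ± 0.25 there. By non-overlap of CPM 9 members were higher in early_MGC, where 3.23% of all genes were. H4C4, an H4 gene and the third by reads, had 70.2, 67.1, 67.2, 57.6 and 64.7 CPM in early_MGC and 42.8, 81.1, 55.8 and 50.7 CPM in secondary_GC. These overlap, and its log2 fold change was 0.33 ± 0.37 (adjusted p = 0.63).

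**Figure D3:**
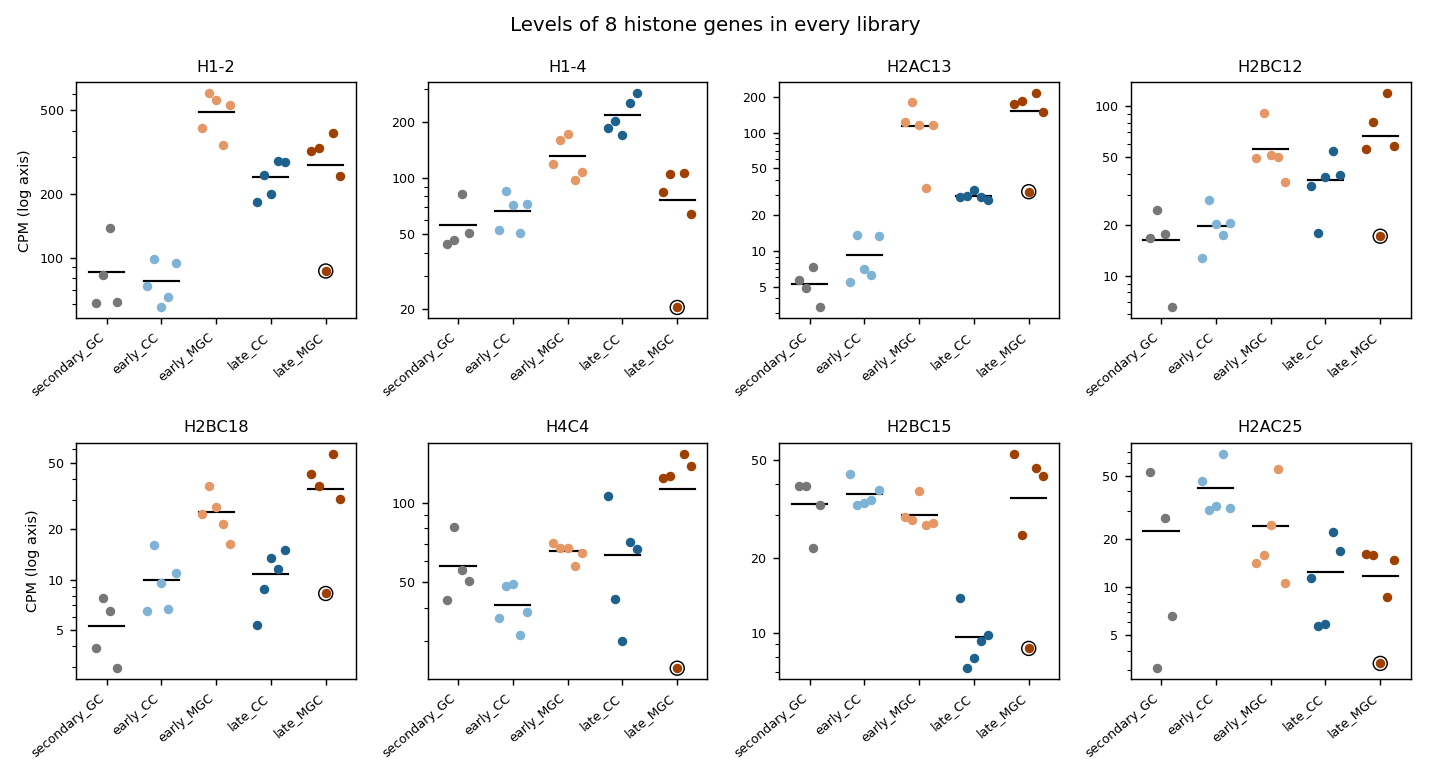
CPM on a log axis in every library for 8 histone genes; points are libraries, lines are group means, and the ring marks late_MGC replicate 3. H2AC13 lies at 34.0 to 182 CPM in early_MGC against 3.35 to 7.37 CPM in secondary_GC, and H2BC15 at 7.22 to 13.9 CPM in late_CC against 32.9 to 43.9 CPM in early_CC.

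Genes that act on histone transcripts also differed in this comparison. Of 25 tested genes for transcription and 3′ end processing of histone messenger RNA, 5 rose and 1 fell in early_MGC. Over all genes 5.01% rose and 4.08% fell. PCF11, a cleavage and termination factor, rose by 1.08 ± 0.22 on the log2 scale (adjusted p = 0.0035), CPSF2, a subunit of the cleavage complex, by 0.88 ± 0.16 (adjusted p = 0.0015), and NPAT, the coactivator of histone gene transcription, by 0.85 ± 0.22 (adjusted p = 0.018). CCNE1, a cyclin of the G1 to S step, fell by 0.83 (SE 0.26, adjusted p = 0.046). With the 3 libraries that stand apart left out, 4 of the 25 rose, where 6.93% of all genes rose, and 0 fell. The S phase list, genes for DNA replication and its licensing, had 3 of 40 members higher and a median log2 fold change of -0.05, against 1.32 for the histone genes. Without the 3 libraries that stand apart 3 were higher and the median was 0.09. With all libraries the summed level of the list was 1548 to 3237 CPM in early_MGC and 2168 to 3137 CPM in secondary_GC, which overlap.

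Between cumulus cells of early antral follicles and secondary granulosa cells, few histone genes differed. H2BC3 rose in early_CC, with 79 counts against 3 in secondary_GC, a ratio of CPM of 15.98 (95% counting interval 5.27 to 79.2; adjusted p = 0.017). That call was lost without secondary_GC replicate 3 (adjusted p = 0.050) or replicate 4 (adjusted p = 0.073). So 1 of 27 rose, where 0.944% of all genes rose, and 0 fell, where 1.05% of all genes fell. At an unadjusted p under 0.05, 3 rose and 1 fell, where 8.45% of all genes rose and 8.06% fell. DESeq2 called 2 higher and 0 lower, where it called 2.01% of all genes higher and 3.04% lower. H2AC13 had 5.54, 13.7, 7.02, 6.33 and 13.5 CPM in early_CC, close to its secondary_GC values and overlapping with them (0.81 ± 0.43, adjusted p = 0.37). Leaving out those 3 libraries, which belong to other groups but share the fit, gave smaller SEs, and H2AC13 was called (0.81 ± 0.25, adjusted p = 0.043), as was H2BC7 (2.33 ± 0.62, adjusted p = 0.018). H1-2 had 72.9, 98.0, 58.0, 64.9 and 93.9 CPM in early_CC and also overlapped with secondary_GC (-0.14 ± 0.31, adjusted p = 0.88). The median of the 27 log2 fold changes was 0.30.

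The contrast between the cell types of early antral follicles asks whether cells next to the oocyte differ from those of the wall. Both linker histone genes, H2AC13 and 3 H2B genes were lower in early_CC than in early_MGC. H2AC13, at 5.54 to 13.7 CPM in early_CC libraries against 34.0 to 182 CPM in early_MGC libraries, fell by 3.72 on the log2 scale (SE 0.43, adjusted p = 1.8e-05). H1-2 fell by 2.77 (SE 0.31, adjusted p = 9.4e-06). H1-4, with 52.5, 85.5, 72.0, 50.6 and 72.9 CPM in early_CC, fell by 1.1 (SE 0.31, adjusted p = 0.019), and its adjusted p was 0.051 without early_CC replicate 1.

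In the same contrast H2BC12 had 12.8, 27.9, 20.1, 17.3 and 20.4 CPM in early_CC, all below the 35.9 CPM of the lowest early_MGC library (-1.62 ± 0.40, adjusted p = 0.0094). H2BC18 had 6.52, 15.97, 9.58, 6.68 and 10.9 CPM in early_CC, and its highest library lay just below the lowest of early_MGC, at 16.3 CPM (-1.47 ± 0.39, adjusted p = 0.015). H2BC5 had 11.1, 10.5, 12.4, 11.4 and 9.36 CPM in early_CC, against 20.9, 12.7, 18.2, 25.8 and 25.2 CPM in early_MGC (-1.03 ± 0.32, adjusted p = 0.032). This last call was lost in 6 of 10 fits that left out 1 library (adjusted p 0.054 to 0.10).

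Thus 6 of 27 fell, where 6.39% of all genes fell, and 0 rose, where 6.7% of all genes rose. At an unadjusted p under 0.05, 12 fell and 0 rose, where 13.1% of all genes fell and 14.7% rose. DESeq2 called 8 lower and 0 higher, where it called 8.97% of all genes lower and 7.62% higher. Of the 27 log2 fold changes 25 were negative, with a median of -0.98 against 0.01 over all genes. Without the 3 libraries that stand apart 9 fell, where 8.31% of all genes fell, H2AC8, H3C8 and H4C4 in addition to the 6. Non-overlap of CPM put 8 members lower in early_CC, where 4.83% of all genes were lower. The S phase list had the opposite sign, with 5 of 40 genes higher in early_CC, a median of 0.55 and a summed level of 3127 to 3991 CPM in early_CC against 1548 to 3237 CPM in early_MGC. The lowest of these sums was that of early_MGC replicate 4. Without the 3 libraries that stand apart 5 S phase genes were higher and 2 lower, with a median of 0.39. Among the processing genes PCF11 (-0.99 ± 0.20, adjusted p = 0.0024), TUT4, which adds uridine to RNA 3′ ends (-0.93 ± 0.20, adjusted p = 0.0038), NPAT (-0.63 ± 0.20, adjusted p = 0.042) and the poly(A) polymerase PAPOLA (-0.46 ± 0.14, adjusted p = 0.028) were lower in early_CC. NELFE, of the negative elongation factor complex, was higher (0.71 ± 0.19, adjusted p = 0.013).

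**Figure D4:**
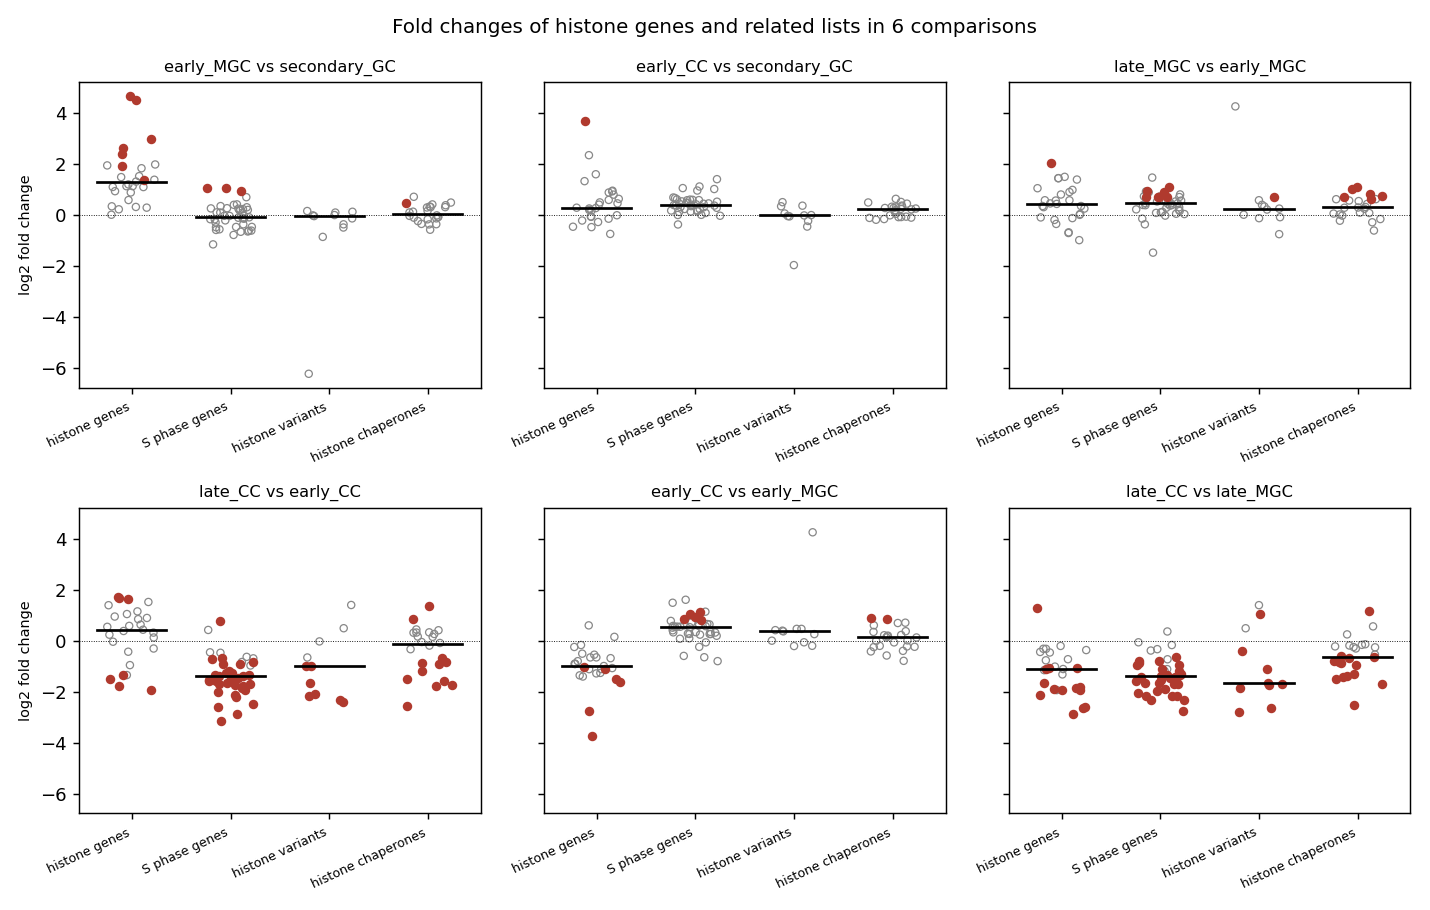
Log2 fold changes of the 27 histone genes, 40 S phase genes, 11 histone variants and 24 histone chaperones in the 6 comparisons; filled points are called at an adjusted p under 0.05 and lines are medians. For late_CC against early_CC the medians are 0.44 for histone genes and -1.36 for S phase genes.

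From early to late antral follicles, cumulus cells changed in both directions. The linker histone genes and H2AC13 rose while 4 core histone genes fell, where 22.5% of all genes rose and 22.7% fell. H1-4 had 185, 201, 170, 251 and 285 CPM in late_CC, its highest group mean of the 5 groups at 218 CPM, against 50.6 to 85.5 CPM in early_CC (1.72 ± 0.31, adjusted p = 9.5e-05). H1-2 had 183, 247, 200, 288 and 284 CPM in late_CC, against 58.0 to 98.0 CPM in early_CC (1.64 ± 0.30, adjusted p = 0.00011). H2AC13 had 28.7, 29.2, 33.0, 28.4 and 27.3 CPM in late_CC, against 5.54 to 13.7 CPM in early_CC (1.70 ± 0.40, adjusted p = 0.0014). For all of these the groups did not overlap, and the late_CC libraries of H2AC13 were close together.

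H2BC15, an H2B gene whose model has 2 exons, had 13.9, 7.22, 7.96, 9.30 and 9.86 CPM in late_CC, against 43.9, 32.9, 33.5, 34.3 and 37.8 CPM in early_CC (-1.91 ± 0.33, adjusted p = 5.7e-05). H2AC25, the H2A gene of chromosome 7, had 11.4, 5.70, 5.88, 22.2 and 16.8 CPM in late_CC, against 46.4, 30.5, 32.04, 68.4 and 31.4 CPM in early_CC. Its log2 fold change was -1.78 ± 0.64 (adjusted p = 0.028), and 4 of 10 fits without 1 library put its adjusted p at 0.055 to 0.071. Neither gene overlapped between the groups.

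The other genes that fell were H2A genes of low level. H2AC4 averaged 1.94 CPM in late_CC and 5.47 CPM in early_CC (-1.49 ± 0.45, adjusted p = 0.0094). H2AC21 averaged 2.91 CPM in late_CC and 7.28 CPM in early_CC (-1.32 ± 0.45, adjusted p = 0.019), with an adjusted p of 0.054 without late_CC replicate 2. In that replicate the 24 genes other than H1-2, H1-4 and H2AC13 summed to 118 CPM, the lowest of the late_CC libraries, the others standing at 190 to 337 CPM.

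This comparison had many calls over the whole table: 22.5% of all genes rose and 22.7% fell. Against that, 3 of 27 histone genes rose (11.1%) and 4 fell (14.8%), both smaller shares than over all genes. This split depended on late_CC replicate 2: without it 8 rose, where 20.8% of all genes rose, and 2 fell, where 21% of all genes fell. Without the 3 libraries that stand apart 9 rose, where 24% of all genes rose, and 5 fell, where 26% of all genes fell. The 7 genes named above kept their calls there, and S phase genes were lower in 37 of 40. The S phase list moved one way, with 32 of 40 genes lower and 1 higher, and summed to 1336 to 1817 CPM in late_CC against 3127 to 3991 CPM in early_CC. E2F2, a transcription factor of S phase entry (-3.16 ± 1.0, adjusted p = 0.012), CDT1, a replication licensing factor (-2.87 ± 0.72, adjusted p = 0.0022), and RPA2, which binds single-stranded DNA (-2.58 ± 0.37, adjusted p = 7.4e-06), fell the most among those called. The medians were 0.44 for the histone genes and -1.36 for the S phase genes.

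In the list of histone variants taken as replication-independent, most genes were lower in late_CC. Among the chaperones that carry histones more genes fell than rose. Of 11 variants tested, 7 fell and 0 rose, led by MACROH2A2, a variant with a large extra domain (-2.38 ± 0.26, adjusted p = 2.6e-07), H2AZ1, found at promoters (-2.32 ± 0.26, adjusted p = 3.3e-07), and H2AX, the variant phosphorylated at DNA breaks (-2.16 ± 0.27, adjusted p = 1.3e-06). Of 24 chaperones 10 fell and 2 rose, with a median log2 fold change of -0.13, beside the 22.7% and 22.5% of all genes given above. ASF1B, which hands H3 and H4 to assembly factors, fell by 2.57 (SE 0.31, adjusted p = 9.0e-07). HAT1, which acetylates new H4, fell by 1.77 (SE 0.32, adjusted p = 0.00011).

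In late_CC, 7 of 25 processing genes rose and 6 fell, where 22.5% of all genes rose and 22.7% fell. TUT4 (1.67 ± 0.20, adjusted p = 1.0e-06) and PCF11 (1.16 ± 0.20, adjusted p = 5.7e-05) were higher, while LSM10, of the U7 particle that guides stem-loop cleavage, was lower (-1.36 ± 0.31, adjusted p = 0.00082). SLBP itself averaged 17.02 CPM in late_CC and 36.4 CPM in early_CC (-1.09 ± 0.19, adjusted p = 5.1e-05). PAPOLA was higher in late_CC (0.66 ± 0.14, adjusted p = 0.0004). The red cell marker HBA averaged 43.1 CPM in late_CC and 0.12 CPM in early_CC, with HBB at 0 in both. The whole red cell list stood at only 1.38 CPM in late_CC replicate 3. The part of the HBA difference in the histone values was not tested.

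Between late and early antral mural cells the result for the 27 members depended on 1 library. Over all libraries H2BC7 rose in late_MGC, with 10.05, 6.41, 0.21, 22.1 and 13.5 CPM against 2.04, 4.83, 1.86, 3.46 and 1.82 CPM in early_MGC (2.03 ± 0.69, adjusted p = 0.041), and the groups overlapped only through late_MGC replicate 3. Thus 1 of 27 rose, where 9.76% of all genes rose, and 0 fell, where 9.3% of all genes fell. At an unadjusted p under 0.05, 4 rose and 2 fell, where 17.4% of all genes rose and 14.7% fell. DESeq2 called 2 higher and 0 lower, where it called 9.54% of all genes higher and 11.5% lower. The H2BC7 call was lost in 7 of 10 fits that left out 1 library (adjusted p 0.056 to 0.13).

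Without late_MGC replicate 3, 9 of 27 rose, where 11.7% of all genes rose, and 0 fell, where 12.4% of all genes fell. Of these, 6 were H2B genes in addition to H2BC7: H2BC13 (1.83 ± 0.51, adjusted p = 0.010), H2BC3 (1.72 ± 0.55, adjusted p = 0.024), H2BC8 (1.38 ± 0.48, adjusted p = 0.037), H2BC6 (1.30 ± 0.47, adjusted p = 0.047), H2BC18 and H2BC15. H4C4, with 124, 126, 153 and 137 CPM in those late_MGC libraries and 57.6 to 70.2 CPM in early_MGC, rose by 1.18 ± 0.25 (adjusted p = 0.00096), and replicate 3 stood at 23.7 CPM. H2AC13 had 175, 185, 216 and 151 CPM there and 31.8 CPM in replicate 3, a log2 fold change of 0.84 ± 0.29 without replicate 3 (adjusted p = 0.035) and 0.58 ± 0.39 with it (adjusted p = 0.32).

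The linker histone genes had the other sign in this comparison. H1-2 had 322, 332, 86.3, 391 and 244 CPM in late_MGC, against 341 to 604 CPM in early_MGC (-0.70 ± 0.29, adjusted p = 0.10). H1-4 had 84.4, 105.4, 20.4, 106 and 64.3 CPM in late_MGC, against 98.2 to 173 CPM in early_MGC (-0.67 ± 0.30, adjusted p = 0.13). Both overlapped between the groups. Without late_MGC replicate 3 the values were -0.46 ± 0.23 for H1-2 (adjusted p = 0.15) and -0.42 ± 0.22 for H1-4 (adjusted p = 0.17), and 0 members were lower at an unadjusted p under 0.05. Of the related lists, 7 of 40 S phase genes and 6 of 24 chaperones rose in late_MGC over all libraries, where 9.76% of all genes rose. Without replicate 3 these counts were 15 and 7, where 11.7% of all genes rose.

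Between cumulus and mural cells of late antral follicles 14 histone genes were called, and 13 of them were lower in cumulus cells. H1-4 was the 1 member higher in late_CC, at 170 to 285 CPM against 64.3 to 106 CPM in 4 late_MGC libraries and 20.4 CPM in replicate 3 (1.29 ± 0.31, adjusted p = 0.0017), and the groups did not overlap. Of the 27 log2 fold changes 26 were negative, also with RLE size factors, and the median was -1.1 against 0.02 over all genes. Here 13 of 27 fell, where 20.8% of all genes fell, and 1 rose, where 18.9% of all genes rose. Without late_MGC replicate 3, 19 fell, where 20.5% of all genes fell, and H1-4 rose, where 21.3% of all genes rose.

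H2AC13 fell by 2.60 on the log2 scale (SE 0.41, adjusted p = 2.6e-05), with late_CC libraries at 27.3 to 33.0 CPM against 151 to 216 CPM in late_MGC apart from replicate 3. H2BC15 had 7.22 to 13.9 CPM in late_CC, against 52.8, 24.8, 8.68, 46.3 and 42.8 CPM in late_MGC (-2.10 ± 0.33, adjusted p = 2.1e-05). H2BC18 had 5.32, 8.79, 13.4, 11.5 and 14.9 CPM in late_CC, against 42.5, 36.3, 8.25, 56.4 and 30.4 CPM in late_MGC (-1.92 ± 0.40, adjusted p = 0.00048). In each of these genes late_MGC replicate 3 was the library that overlapped with late_CC.

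The other genes that fell covered every core class, though H3 and H4 by 1 gene each. They were H2BC3 (-2.86 ± 0.62, adjusted p = 0.00068), H2AC11, H2AC4, H2AC21, H3C8 (an H3 gene, at 5.57 CPM in late_CC and 16.96 CPM in late_MGC on average), H2BC13, H2BC6, H2BC5, H2BC12 and H4C4, with log2 fold changes of -2.86 to -1.06. The weakest of these calls were lost in single fits without 1 library: H2BC13 in 5 of them (adjusted p 0.052 to 0.073), H2BC12 in 4 (0.055 to 0.12), H2AC11 in 3 (0.051 to 0.054), H2BC6 without late_MGC replicate 4 (0.055) and H4C4 without late_CC replicate 2 (0.051). Neither H3C8 nor H4C4 was called by limma-voom (adjusted p = 0.13 and 0.069). The edgeR fit of only these groups did not call them either (adjusted p = 0.057 and 0.099). H1-2 was 0.43 lower in late_CC with all libraries (SE 0.29, adjusted p = 0.25) and 0.67 lower without late_MGC replicate 3 (SE 0.23, adjusted p = 0.019).

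Of the related lists, 32 of 40 S phase genes were lower in late_CC, 8 of 11 variants with 1 higher, and 13 of 24 chaperones with 1 higher, beside the 20.8% of all genes that fell. Of 25 processing genes 5 were lower and 2 higher, with a median of -0.08. Without late_MGC replicate 3 the lower counts were 34, 8, 13 and 8. PCNA, the sliding clamp of DNA polymerase, fell by 2.33 (SE 0.36, adjusted p = 1.6e-05). SLBP fell by 0.92 (SE 0.19, adjusted p = 0.00034) and TUT4 rose by 0.89 ± 0.20 (adjusted p = 0.00096). The comparisons named so far share groups of libraries, so their calls are not independent of each other.

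The interaction of stage and cell type asks whether the change from early to late differed between cumulus and mural cells. It did for both linker histone genes, with H1-4 at 2.39 ± 0.43 (adjusted p = 0.00023) and H1-2 at 2.34 ± 0.42 (adjusted p = 0.0002), both higher in late than early cumulus cells while the mural change was negative and not called. Without late_MGC replicate 3 the values were 2.14 ± 0.31 and 2.1 ± 0.32. H2BC15 had -2.27 ± 0.46 (adjusted p = 0.00058), falling in cumulus cells by 1.91 where the mural change was 0.36 ± 0.32. So 2 of 27 were called positive, where 14.5% of all genes were, and 1 was called negative, where 16.9% of all genes were. Of the 27 interaction values, called or not, 10 were positive and 17 negative. Without late_MGC replicate 3 the negative calls were H2BC15, H2AC11, H2BC3 and H2AC4, 4 of 27 where 18.4% of all genes were called negative. The same 2 linker histone genes were called positive there, where 18.1% of all genes were. H2AC13 had an interaction of 1.13 ± 0.55 (adjusted p = 0.12), and of 1.0 ± 0.34 without the 3 libraries that stand apart (adjusted p = 0.025). In the S phase list 32 of 40 genes were called negative in the interaction, and 35 of 40 without late_MGC replicate 3.

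The balance of the linker histone genes within a library does not depend on scaling between libraries. Per kilobase, H1-2 stood at 0.69 to 1.19 times the level of H1-4 in early_CC and 0.85 to 1.06 times in late_CC. In mural cells the ratio was 2.79 to 4.23 in early_MGC and 2.71 to 3.65 in late_MGC, and in secondary_GC it was 1.04 to 1.51. No mural library overlapped with any cumulus or secondary library. The level of the ratio, though not its fold difference between groups, depends on the exon lengths used, 768 bases for H1-2 and 660 for H1-4. Late_MGC replicate 3, with few granulosa transcripts, had the highest ratio of its group at 3.65. The ratio was formed after the values were seen and is given as a description without a test.

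**Figure D5:**
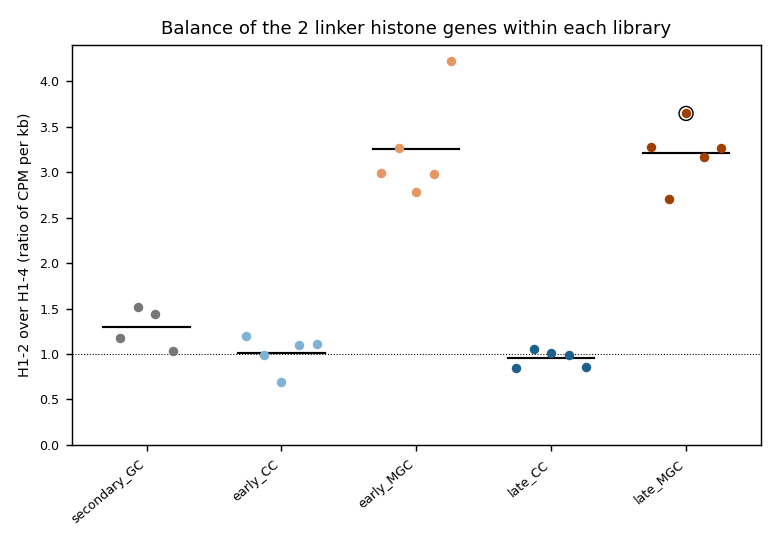
Ratio of H1-2 to H1-4, each as CPM per kb of exon, in every library; points are libraries, lines are group means, the dotted line is equality and the ring marks late_MGC replicate 3. The 10 mural libraries lie between 2.71 and 4.23 and the other 14 between 0.69 and 1.51.

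The 10 members that edgeR's test on all libraries called in no comparison were H2AC6, H2AC7, H2AC8, H2AC10, H2BC8, H2BC26, H3C1, H3C6, H3C13 and H4C1. DESeq2 called 5 of them: H2AC8 and H2AC10 higher in early_MGC than in secondary_GC, H2AC8 and H4C1 lower in early_CC than in early_MGC, H2AC6 higher in late_CC than in early_CC, and H3C13 lower in late_CC than in late_MGC. H2AC6 was the most abundant of them, averaging 21.7 CPM over all libraries. It had 30.6, 3.73, 23.1, 31.1 and 43.4 CPM in late_CC, against 9.39 to 17.9 CPM in early_CC (1.06 ± 0.45, adjusted p = 0.061), and late_CC replicate 2 alone fell below the early_CC range. The level of H3 genes was low throughout, their 4 genes summing to 14.5 to 27.4 CPM in early_MGC and 7.09 to 16.4 CPM in secondary_GC. The 2 H4 genes summed to 34.2 to 54.6 CPM in early_CC, against 75.2 to 80.5 CPM in early_MGC, which do not overlap.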

How the data were processed

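The authors' deposited table holds whole-number counts of reads per gene in 24 libraries. Per the file headers, these counts were made by the authors with featureCounts 2.0.0 on an Ensembl annotation of ARS-UCD1.2, with no option set for strand or multi-mapped reads. Per the submitters' processing notes, the tools named besides it are fastp 0.20.0, HISAT2 2.1.0 and SAMtools 1.10. Per the labels, cDNA came from total RNA with a low-input kit. The table's deposited exon length in bases was used for values per kb.

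Symbols were matched by position to the RefSeq annotation of ARS-UCD2.0 (mutual best overlap of at least 0.5 of the union, or an identical start or end). For 8 of the 27 members a start or end coincided, and elsewhere the overlap was at least 0.526. Among those 8, H2BC5 had an overlap of only 0.137, the lowest of all members. Individual names may therefore be mistaken, and 2 members share exon bases with another gene: H2AC6, 68 bases, and H2BC12, 2 bases. CPM are counts over the library total. Counts were tested with edgeR 4.0.16 in R 4.3.3 (quasi-likelihood test, TMM scaling, filterByExpr, robust), all 24 libraries in 1 fit, 14298 genes, called at a Benjamini-Hochberg adjusted p under 0.05. The fit was checked on simulated data. DESeq2 1.42.0 and limma 3.58.1 served as alternatives.

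The members and lists were chosen with earlier results of these data known. Named in full are H2AC13, H1-2, members called in at least 1 comparison and the 3 with the highest mean CPM; in lists, the called genes of largest change, with SLBP, NPAT, PAPOLA, NELFE, PCNA and others added after their values were seen. MCM2 stands in both the chaperone and the S phase list. The labels do not say whether replicates came from separate animals, so p-values measure only the spread between these samples. Columns of secondary_GC and late_MGC are numbered by column order, and 1 column of undetermined reads was not used. No copies were found among replicates (lowest chi-square per degree of freedom 17.4). Intervals cover counting error only, and no sequences were printed.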

Additional observations from a re-analysis of the deposited data

Results flagged for a closer look

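Single libraries stood apart from their group in 6 of 90 combinations of gene or sum and group, by the gap to the nearest other library; chance flags about 1 in 20. H4C4 stood at 23.7 CPM in late_MGC replicate 3, against 124 to 153 CPM in the other late_MGC libraries. H2BC13 stood at 0.107 CPM in the same library, against 5.22 to 6.93 CPM in the others. In early_MGC, H2BC12 was high in replicate 2 at 90.5 CPM, where the others stood at 35.9 to 51.6 CPM, and H2BC15 was high in replicate 3 at 37.3 CPM, with the others at 27.2 to 29.3 CPM. H2AC21 was high in secondary_GC replicate 1 at 12.53 CPM, with the others at 2.0 to 3.68 CPM, and low in early_CC replicate 4 at 5.77 CPM, with the others at 7.34 to 7.91 CPM.

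The change from early to late follicles differed between cumulus and mural cells, by the interaction test of edgeR over all genes, for H1-4 (2.39 on the log2 scale, adjusted p = 0.00023), H1-2 (2.34, adjusted p = 0.0002) and H2BC15 (-2.27, adjusted p = 0.00058). All 3 calls were also made by DESeq2 and limma-voom, in each fit that left out 1 library and without the 3 libraries that stand apart.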

How the results depend on the processing

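Of 710 log2 fold changes of called members under the alternatives, 652 kept their direction and call, 58 lost the call and 0 turned direction. Leaving out 1 library at a time gave 5 to 7 members called for early_MGC against secondary_GC, 0 to 1 for early_CC against secondary_GC, 0 to 9 for late_MGC against early_MGC, 6 to 10 for late_CC against early_CC, 4 to 6 for early_CC against early_MGC, 10 to 20 for late_CC against late_MGC and 3 to 6 for the interaction. The ends at 9 and 20, and 6 for the interaction, came without late_MGC replicate 3.

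Counts that moved by over 1.5 times are given here by comparison, the reason in each case not tested beyond the setting itself. For early_CC against secondary_GC (1 called) DESeq2 called 2, limma-voom 0, a fit of those groups only 0, and the fit without the 3 libraries that stand apart, chosen after seeing the data, 3. For late_MGC against early_MGC (1 called) no filter on low counts gave 0, DESeq2 2, limma-voom 0, a fit of those groups only 0 and the fit without the 3 libraries 9. For late_CC against early_CC (7 called) the fit without the 3 libraries gave 14. For early_CC against early_MGC (6 called) a fit of those groups only gave 13. For late_CC against late_MGC (14 called) limma-voom gave 8. For the interaction (3 called) the fit without the 3 libraries gave 6. Restricting members to the 8 with an identical start or end left 1, 0, 0, 2, 2, 4 and 1 called, in the order of the ranges above, since fewer genes were counted. Adding 9 genes named through their exons, of which 7 were tested, chosen after seeing the data, gave 4 for late_MGC against early_MGC and 5 for the interaction. By edgeR over all libraries H4C2 (1.96 ± 0.52, adjusted p = 0.010), H4C9 (2.15 ± 0.69, adjusted p = 0.029) and H2BC11 (2.72 ± 0.66, adjusted p = 0.0054) were higher in late_MGC than in early_MGC. H2BC4 and H4C3 were higher in early_MGC than in secondary_GC (adjusted p = 0.026 and 0.0050) and than in early_CC (adjusted p = 0.0043 and 0.0089). The rest of the 7 were not called in those comparisons. H2AC18, H2BC4, H4C3, H4C2 and H2BC11 were lower in late_CC than in late_MGC, where 20.8% of all genes fell. Their log2 fold changes were -3.53 to -1.35 (adjusted p 0.00019 to 0.037). H4C2 and H2BC11 were called negative in the interaction (adjusted p = 0.049 and 0.0032), where 16.9% of all genes were.

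Same-numbered libraries of early_CC, early_MGC and late_CC correlated at -0.147 to 0.242, over 0.1 in 4 of 15 pairs, all of them number 1 or 2. The best match in another group had the library's own number in 8 of 30 cases. The numbers were therefore not taken to pair the samples. With the replicate block over these 15 libraries 10 members were called for late_CC against early_CC and 7 for early_CC against early_MGC, against 13 and 10 without the block in the same libraries. No paired analysis was possible for the other comparisons because the columns of secondary_GC and late_MGC carry no number of a sample title. Depth limits the low members most: H2BC3 and H3C13 averaged 1.07 and 0.62 CPM, and calls of H2BC3 against secondary_GC rest on 3 counts there.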
